A study of Mus musculus with 10 samples.

Results

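Chemokines are small secreted proteins that guide leukocytes, and chemokine receptors are the cell surface proteins that sense them. Members were the protein-coding genes whose symbols carry a chemokine or chemokine receptor root (Ccl, Cxcl, Xcl, Ccr, Cxcr, Xcr or Ackr) followed by a digit, with Cx3cl1 and Cx3cr1 added. The rule selected 60 of the 47333 genes in the deposited table, 37 ligands and 23 receptors, and used no measured value. The data came from the right middle lobe of the lung of 10 naive, untreated mice, all of the C57BL/6J background and aged 12 weeks. The mutant group (KO, n = 5) had lost Bpifb1, whose product is a protein secreted into the airway lining, and held 1 male and 4 females. The wild-type group (WT, n = 5) held 2 males and 3 females. Both genotypes shared cages, and the labels do not say how the KO allele was made. The study was designed to test which genes are expressed differently when Bpifb1 is lost, and the comparison below asks this of the chemokine system in an unchallenged lung. Each mouse gave 1 library, so the replicates are separate animals.

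Most chemokines bind G protein-coupled receptors that signal through inhibitory G proteins and direct cell movement along a gradient. They are classed by the spacing of their conserved cysteines into CC, CXC, C and CX3C types. Some are made constantly and place lymphocytes in lymphoid tissue or leukocytes at barrier surfaces, whereas others are induced by cytokines, NF-kappa B or interferon during inflammation. Atypical receptors bind chemokines without conventional G protein signalling and remove or redistribute them. In the airway, epithelial cells and macrophages make chemokines that call in neutrophils, monocytes and lymphocytes.

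Library totals ran from 21357424 to 28321294 rounded counts, and 24026 to 25135 genes had at least 1 count per mouse. The smallest signal read as detected, 3 counts, was worth 0.103 to 0.143 CPM (counts per 1000000 counts of a library, after TMM scaling of the totals). This floor covers counting error only, since PCR copies cannot be told from separate molecules here. Bpifb1 itself averaged 0.614 ± 0.462 CPM in KO mice and 59.7 ± 23.6 CPM in their WT controls (SD, n = 5 per genotype), and no KO value reached a WT value. In 1 library the sex-linked genes went with the sex label only in part. KO replicate 5, labelled female, had 1.78 CPM of the X-inactivation transcript Xist, where the 3 males had 1.29 to 1.73 CPM and the other females 273 to 406.5 CPM. It had 0 counts of 4 Y-linked genes, of which the males had 2470 to 3441. The main results by sex are therefore also given without that mouse. The expected cell types of a lung lobe were present: summed marker levels reached 23720 to 29350 CPM for alveolar type 2 cells and 443 to 687.7 CPM for alveolar macrophages. Heart muscle markers were also present, at 459.4 to 1259 CPM.

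The upstream sequences are printed for 4 inducible ligands. Each of them held a kappa B match, explained below, and is set out mouse by mouse in the genotype comparison. Each run is the 250 bases before the RefSeq start site, on the gene's own strand, from the RefSeq tables of GRCm38.p6. Capitals mark matches on either strand to the kappa B consensus, bound by NF-kappa B proteins, and in Cxcl10 also to the interferon-stimulated response element (ISRE, searched as GAAANNGAAA). Ccl20 lies on the plus strand at chr1:83116516-83116765, Cxcl1 on the plus strand at chr5:90890995-90891244, Cxcl2 on the plus strand at chr5:90903649-90903898, and Cxcl10 on the minus strand at chr5:92348890-92349139.
Ccl20: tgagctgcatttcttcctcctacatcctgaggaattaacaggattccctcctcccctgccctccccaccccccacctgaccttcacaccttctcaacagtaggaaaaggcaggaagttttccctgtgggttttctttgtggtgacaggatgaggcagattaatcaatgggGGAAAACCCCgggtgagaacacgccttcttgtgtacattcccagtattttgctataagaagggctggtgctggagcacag
Cxcl1: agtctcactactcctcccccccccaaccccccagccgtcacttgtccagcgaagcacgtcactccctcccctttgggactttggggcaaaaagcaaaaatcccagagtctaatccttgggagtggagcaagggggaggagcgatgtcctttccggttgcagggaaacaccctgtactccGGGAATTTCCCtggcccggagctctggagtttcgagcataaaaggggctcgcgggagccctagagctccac
Cxcl2: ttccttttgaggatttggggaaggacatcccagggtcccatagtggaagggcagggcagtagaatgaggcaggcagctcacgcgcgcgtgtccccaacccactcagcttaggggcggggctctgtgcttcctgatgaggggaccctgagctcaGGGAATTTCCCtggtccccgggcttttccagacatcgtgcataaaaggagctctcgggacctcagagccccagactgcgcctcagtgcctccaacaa
Cxcl10: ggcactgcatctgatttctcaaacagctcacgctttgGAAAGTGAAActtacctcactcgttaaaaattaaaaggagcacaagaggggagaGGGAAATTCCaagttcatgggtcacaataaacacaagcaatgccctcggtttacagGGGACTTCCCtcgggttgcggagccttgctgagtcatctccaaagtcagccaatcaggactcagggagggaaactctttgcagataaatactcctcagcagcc

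In Ccl20 the kappa B match spans bases -80 to -71 counted from the start site. Cxcl1 and Cxcl2, neighbours on chromosome 5, share the same 11 capital letters, read as a match on each strand with 9 bases in common, at -71 to -61 and -97 to -87. Cxcl10 holds an ISRE match at -213 to -204 and kappa B matches at -159 to -150 and -103 to -94, none overlapping another. RefSeq windows were found for 46 of the 60 members, and 9 of these genes (19.6%) held a kappa B match, against 4.46% of 27025 genes with a window. The 9 were Ackr2, Ccl20, Ccl9, Ccr3, Ccr6, Cxcl1, Cxcl10, Cxcl2 and Cxcl3. An ISRE match was found in 3 members (6.52%, against 3.46% of all genes), namely Ccl19, Cxcl10 and Cxcl14. The interferon-gamma activated site (GAS, searched as TTCNNNGAA) was found in 4 members (8.7%, against 8.13%). Cxcl9, Cx3cl1, Cxcl13 and Cxcl15, also set out mouse by mouse below, held no match to the kappa B, ISRE or GAS letters. A match is a description of the letters and shows neither binding nor use of the site.

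The chemokine RNA of the naive lung was dominated by 1 gene. Cxcl15, also known as lungkine, is a lung epithelial CXC chemokine and averaged 1169 CPM, or 549.5 CPM per kilobase of exon. It made up 49.2% to 56% of the summed CPM of all 60 members in each mouse. That sum lay between 2088 and 2421 CPM, of which receptors gave 248 to 287.8 CPM. On the same per-kilobase scale, Ccl21a, which draws CCR7-bearing lymphocytes and dendritic cells, stood next at 109. It was followed by the epithelial chemokine Cxcl14 at 87.7, the myeloid chemokine Ccl6 at 63.9, the mucosal chemokine Cxcl17 at 33.3 and Cxcl12, the CXCR4 ligand made by stromal and endothelial cells, at 27.05. Among receptors that signal, Cxcr4 stood highest at 32.1 CPM per kilobase, ahead of Ccr7 at 9.16 and Ccr2 at 4.52. Ackr2, an atypical receptor that clears inflammatory CC chemokines, reached 13.9 and exceeded Ccr7. Ccl5, an effector chemokine of NK cells and memory T cells, stood at 20.2. Several inducible ligands were far lower: Cxcl10 stood at 0.57, Ccl2 at 0.54, Cxcl9 at 0.39 and Cxcl1 at 0.36 CPM per kilobase.

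**Figure D1:**
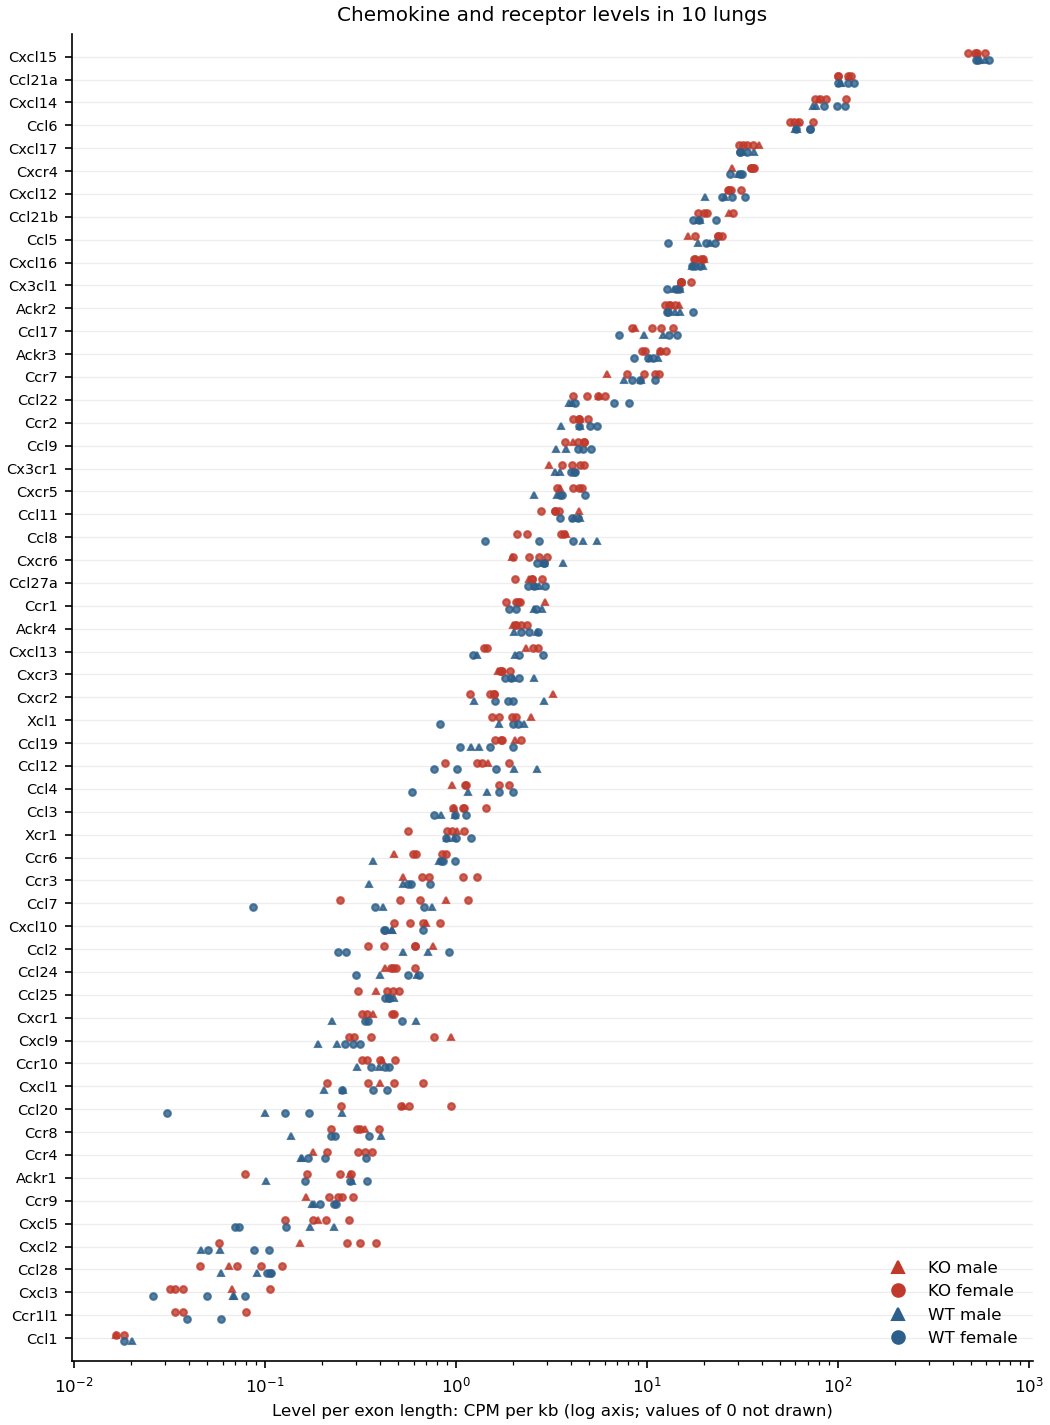
Level of each reported member with a value above 0 in each of the 10 mice, in CPM per kilobase of exon on a log axis, with members in order of their mean, KO in red, WT in blue, triangles for males and circles for females. Cxcl15 stands alone at the top and the inducible ligands Cxcl1, Cxcl2 and Cxcl3 lie near the bottom, and the genotypes are interleaved for most members.

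Of the 60 members, 50 passed the filter on low counts, 30 ligands and 20 receptors, and entered the test. Ccl26 and Ccl27b had 0 counts in all 10 mice, which allows up to the 3-count floor in each library. Ccl1 had at most 1 count and Ccr1l1 at most 2 counts in any mouse. Cxcl2, Cxcl3, Cxcl5, Ccl20, Ccr8 and Ackr1 were detected but fell under the filter, with highest counts of 17, 8, 11, 29, 12 and 14. Some counts are less certain than others. Estimated counts of Ccl21a, Ccl21b, Ccl19, Ccr2 and Cxcl16 were fractional in all 10 mice, so reads that fit more than 1 gene were shared out, and near-identical copies such as Ccl21a and Ccl21b cannot be separated with confidence. The spans of 17 members overlap a gene on the opposite strand, among them Cxcr6 within Fyco1, Cxcl10 within Art3 and Cx3cr1 with Wdr48. The kit was stranded, but the strand setting of the counting is not given in the sources used here, so for these genes reads from the partner may be included. Some spans also overlap a gene on the same strand, where strand cannot separate the reads. Among these were Cx3cr1 with Gorasp1 (34.6 CPM), Csrnp1 (35.1 CPM) and Xirp1 (4.14 CPM), Ccr9 with Gm17200 (5.71 CPM), and Ackr1 with Cadm3 (2.39 CPM).

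No tested chemokine or receptor passed the test between the genotypes. By edgeR's quasi-likelihood test with sex as covariate, 0 of the 50 tested members passed an adjusted p under 0.05, where 0.0222% of all 18024 tested genes passed. By the DESeq2 Wald test and by limma-voom the number of members called was also 0, where these tests called 1.92% and 0.0111% of all tested genes. The log2 ratio (the fitted log2 fold change of KO over WT, or of male over female mice) had a median of -0.02 over the members, beside 0.00 over all tested genes, and the median size was 0.11 beside 0.10. By direction alone, 23 members were fitted higher in KO and 27 lower, beside 8891 and 9133 of all 18024 tested genes. At an unadjusted p under 0.05, 4 members (8%) were higher in KO, where 8.92% of all tested genes were, and 1 member (2%) was lower, where 8.04% were. Both shares are at or under the background. The ranges of the genotypes were separate for 1 member (2%), Cx3cl1, against 1.88% of all tested genes. In these bulk libraries, fewer cells of a type and less RNA per cell cannot be told apart. Marker lists for 22 cell types included none that passed between the genotypes (exact permutation tests, smallest adjusted p 0.800). The lowest unadjusted p, 0.0556, belonged to the club cell markers, which summed to 29880 to 33670 CPM in KO and 31110 to 39680 CPM in WT mice.

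**Figure D2:**
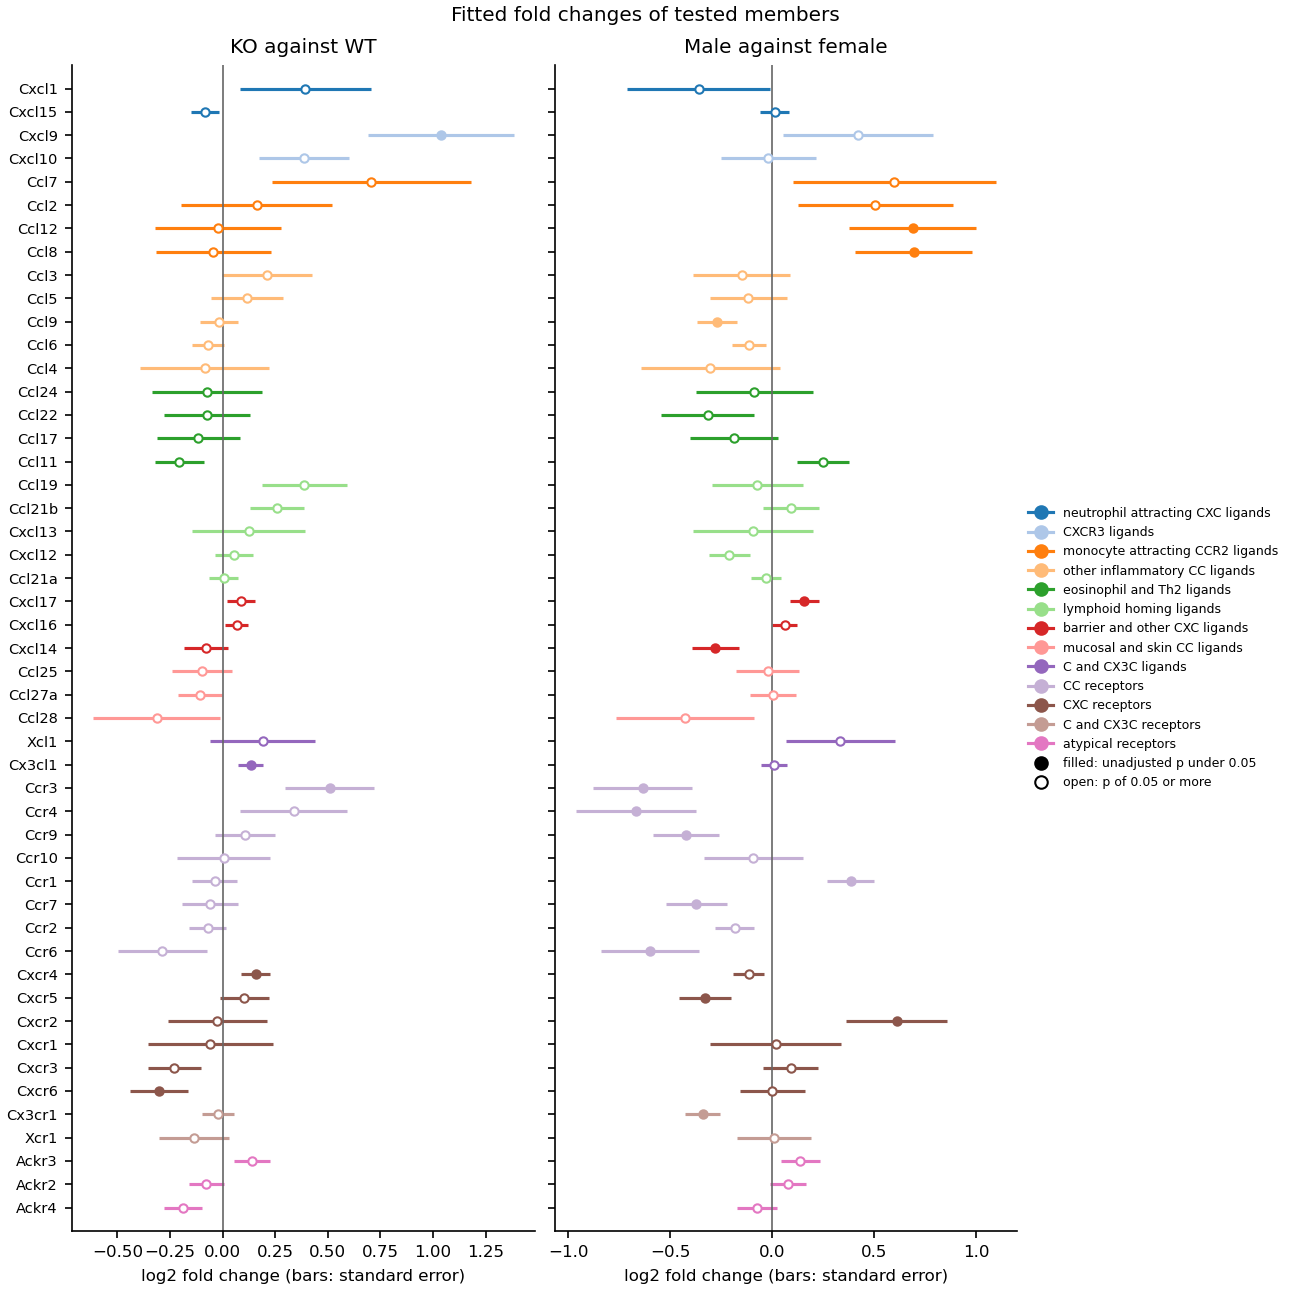
Fitted log2 fold changes with standard errors of the tested members that are reported, by role, for KO against WT (left) and male against female mice (right), each axis with its own scale. Most KO against WT values lie within 0.25 of 0, and the 5 filled points on the left are Cxcl9, Ccr3, Cxcr4, Cx3cl1 and Cxcr6.

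Among the CXC ligands that attract neutrophils, the abundant Cxcl15 overlapped widely between the groups. It measured 1141, 1112, 1144, 1249 and 1027 CPM in the KO mice and 1151, 1247, 1169, 1130 and 1316 CPM in the WT mice. The edgeR log2 ratio was -0.08 ± 0.07 SE (adjusted p 0.554). Cxcl1, an inducible ligand of CXCR2, was low, at 0.747, 0.886, 1.25, 0.65 and 0.395 CPM in KO and 0.816, 0.381, 0.481, 0.477 and 0.69 CPM in WT mice. Its highest value was KO replicate 3 and the groups overlapped (edgeR log2 ratio 0.39 ± 0.31 SE, adjusted p 0.542). Cxcl2, a further CXCR2 ligand with the same promoter match as Cxcl1, was not tested because of its low counts. It had 8, 15, 17, 15 and 3 counts in KO and 4, 2, 3, 5 and 3 counts in WT mice, or 0.485 ± 0.268 and 0.143 ± 0.0532 CPM (SD, n = 5 per genotype). In 4 of 5 KO mice it lay above every WT value, while KO replicate 5 was at the floor. Cxcl3, with the same promoter match again and also untested, did not stand higher in KO. It held 0.193 ± 0.112 CPM in KO mice and 0.204 ± 0.0732 CPM in their WT controls (SD, n = 5 per genotype). Cxcl5, made by epithelium and platelets, was also untested, at 0.365 ± 0.0994 CPM in KO mice and 0.251 ± 0.127 CPM in their WT controls (SD, n = 5 per genotype). Cxcr2, the receptor of Cxcl1, Cxcl2 and Cxcl5 on neutrophils, stood at 5.54 ± 2.45 CPM in KO mice and 5.88 ± 1.89 CPM in their WT controls (SD, n = 5 per genotype, edgeR log2 ratio -0.03 ± 0.23 SE, adjusted p 0.972). Neutrophil markers summed to 87.02 to 115.7 CPM in KO and 78.2 to 116 CPM in WT mice.

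Ccl20 (ENSMUSG00000026166, GRCm38 chromosome 1, 83116766 to 83119167, plus strand) encodes the ligand of CCR6 on B cells, dendritic cells and type 17 T cells, and airway epithelium makes it on inflammatory signals. It is singled out here after its values were seen, since it did not pass the filter. Its counts were 19, 22, 29, 17 and 9 in the KO mice and 4, 3, 9, 1 and 7 in the WT mice. As CPM these were 0.747, 0.812, 1.35, 0.737 and 0.355 in KO and 0.181, 0.143, 0.361, 0.0434 and 0.241 in WT mice. The KO mice were the higher group, and the ranges met only at the lowest KO mouse, replicate 5, and the highest WT mouse, replicate 3. Fitted with no filter on low counts, the log2 fold change was 2.02 (edgeR adjusted p 0.0453). That setting called 50 genes between the genotypes, against 4 with the filter, and their share of all genes was not computed. The fold kept its direction in all 16 further settings, between 1.75 and 2.30, but the adjusted p ran from 0.0193 to 0.2297 and was under 0.05 in 6 of them. It was 0.1196 with a filter at a minimum count of 3, 0.2297 by limma-voom and 0.0273 by the DESeq2 Wald test. Leaving out 1 mouse at a time kept it under 0.05 in 3 of 10 cases, those without WT replicate 3, WT replicate 4 or KO replicate 5. Ccr6, the receptor, stood at 1.59 ± 0.403 CPM in KO mice and 1.79 ± 0.548 CPM in their WT controls (SD, n = 5 per genotype), with overlapping ranges.

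The interferon-inducible ligands Cxcl9 and Cxcl10, which draw T cells and natural killer (NK) cells through CXCR3, were both fitted higher in KO mice without passing the adjusted threshold. Cxcl9 (ENSMUSG00000029417, GRCm38 chromosome 5, 92321347 to 92328079, minus strand) had the largest fitted fold among tested members. It measured 2.83, 0.886, 2.32, 1.08 and 0.829 CPM in KO and 0.952, 0.571, 0.722, 0.868 and 0.793 CPM in WT mice. KO replicates 1 and 3 stood well above all other mice, and the other KO mice lay within or just beyond the WT range. The fit by edgeR gave a log2 ratio of 1.04 ± 0.35 SE (p 0.0106, adjusted p 0.193), and it was 0.54 without KO replicate 1 (edgeR p 0.154). With females alone Cxcl9 also lost the unadjusted threshold. Cxcl10 measured 1.57, 1.51, 1.86, 1.3 and 1.06 CPM in KO and 0.952, 1.05, 1.04, 0.955 and 1.52 CPM in WT mice. The KO mice were all above 4 of the 5 WT mice, and WT replicate 5 stood inside the KO range. By edgeR the log2 ratio was 0.39 ± 0.21 SE (adjusted p 0.371), and 0.58 without WT replicate 5 (edgeR adjusted p 0.241). Their receptor Cxcr3 stood at 3.03 ± 0.172 CPM in KO mice and 3.62 ± 0.496 CPM in their WT controls (SD, n = 5 per genotype), and did not pass the unadjusted threshold.

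**Figure D3:**
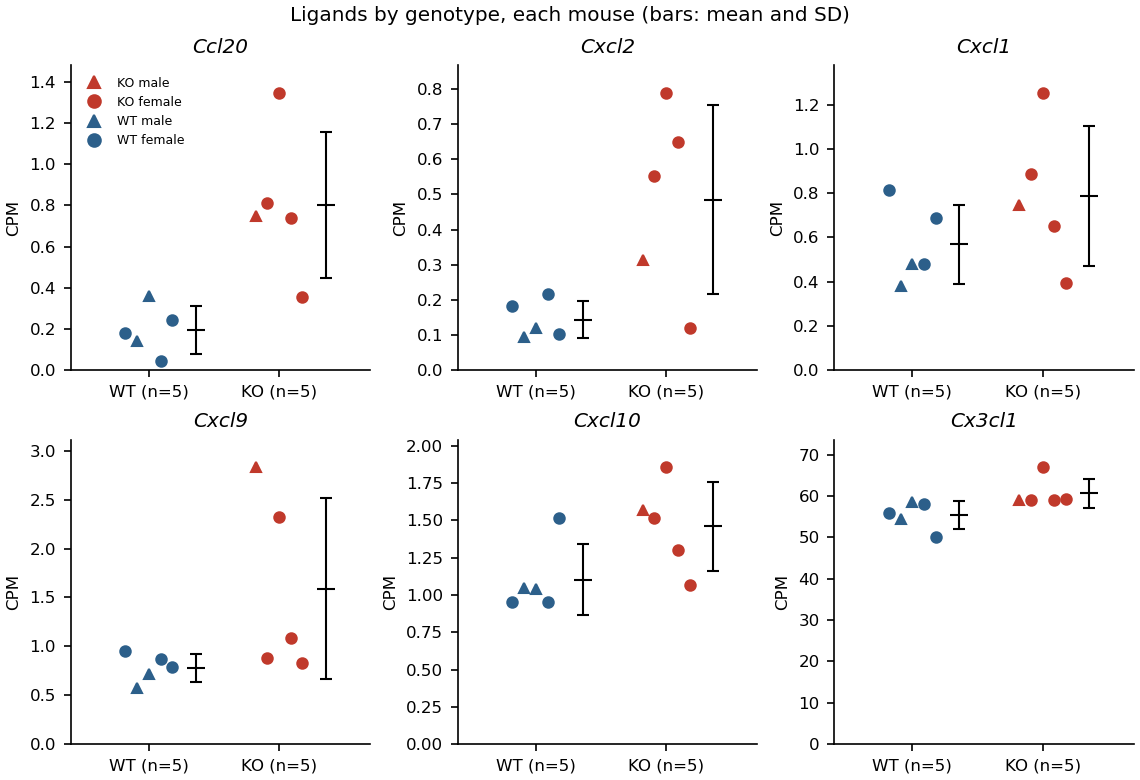
CPM of 6 ligands in each mouse, WT in blue and KO in red, triangles for males and circles for females, with mean and SD bars, every axis from 0. Ccl20 and Cxcl2 are higher in most KO mice at low counts, KO replicates 1 and 3 are the highest for Cxcl9, and the lowest KO value of Cx3cl1 lies just above the highest WT value.

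The monocyte-attracting ligands Ccl2, Ccl7, Ccl8 and Ccl12 were few in counts and varied from mouse to mouse. Ccl2 measured 0.865, 0.48, 0.697, 0.694 and 0.395 CPM in KO and 1.04, 0.809, 0.602, 0.304 and 0.276 CPM in WT mice, so the WT range enclosed the KO range (edgeR log2 ratio 0.16 ± 0.36 SE, adjusted p 0.860). The other 3 ligands also overlapped between the groups, and 2 of the 4 were fitted higher and 2 lower. Ccr2, carried by classical monocytes, stood at 30.1 ± 1.89 CPM in KO mice and 31.0 ± 4.92 CPM in their WT controls (SD, n = 5 per genotype, edgeR log2 ratio -0.07 ± 0.09 SE, adjusted p 0.720). The other inflammatory CC ligands Ccl3, Ccl4, Ccl5, Ccl6 and Ccl9 had a median log2 fold change of -0.02, and none passed the unadjusted threshold. Ccl6, the most abundant of them, held 113 ± 12.1 CPM in KO mice and 117 ± 11.2 CPM in their WT controls (SD, n = 5 per genotype). Ccl9 held 13.1 ± 1.23 and 12.9 ± 2.12 CPM. The eosinophil and type 2 T cell ligands that were tested, Ccl11, Ccl17, Ccl22 and Ccl24, were all 4 fitted slightly lower in KO, with a median of -0.09 and 0 past the unadjusted threshold.

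Ccr3 (ENSMUSG00000035448, GRCm38 chromosome 9, 124021972 to 124031689, plus strand), the eotaxin receptor of eosinophils, basophils and mast cells, was higher in KO mice at the unadjusted threshold only. It measured 1.73, 3.54, 2.18, 4.21 and 2.37 CPM in KO and 2.4, 1.14, 1.73, 1.91 and 1.83 CPM in WT mice. KO replicates 2 and 4 exceeded all WT mice, and the other 3 overlapped them. The edgeR log2 ratio was 0.51 ± 0.21 SE (p 0.0313, adjusted p 0.249). It lost the unadjusted threshold without KO replicate 2 (0.44, edgeR p 0.075), KO replicate 4 (0.37, edgeR p 0.0889), WT replicate 2 (0.47, edgeR p 0.0536), WT replicate 4 (0.46, edgeR p 0.0753) or WT replicate 5 (0.44, edgeR p 0.0867). Markers of mast cells, eosinophils and basophils summed to 19.1 to 22.3 CPM in KO and 18.5 to 21.4 CPM in WT mice. Only 3 of the 8 listed markers reached a mean of 1 CPM.

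The chemokines that organise lymphocytes were all detected and overlapped between the genotypes. The 5 tested lymphoid homing ligands, Cxcl12, Cxcl13, Ccl19, Ccl21a and Ccl21b, were all fitted higher in KO. Their median log2 fold change was 0.12, and 0 passed the unadjusted threshold. The shared direction did not hold throughout: Ccl21a changed sign in 8 of 19 alternative settings, and Cxcl12 and Cxcl13 in 3 each. Ccl21b held 9.19 ± 1.76 CPM in KO mice and 7.78 ± 0.856 CPM in their WT controls (SD, n = 5 per genotype). Cxcl13 and its receptor Cxcr5 guide B cells into follicles. Cxcl13 measured 2.67, 2.92, 1.67, 3.08 and 1.62 CPM in KO and 2.45, 2.33, 1.49, 3.3 and 1.41 CPM in WT mice, with overlapping values throughout (edgeR log2 ratio 0.12 ± 0.27 SE, adjusted p 0.854). Cxcr5 stood at 13.3 ± 1.77 CPM in KO mice and 11.9 ± 2.57 CPM in their WT controls (SD, n = 5 per genotype, edgeR log2 ratio 0.10 ± 0.12 SE, adjusted p 0.689). Ccl21a, made by lymphatic vessels, held 94.9 ± 7.08 and 94.2 ± 7.76 CPM (SD, n = 5 per genotype, edgeR log2 ratio 0.01 ± 0.07 SE, adjusted p 0.980). Ccl19, the other CCR7 ligand, measured 1.77, 1.51, 1.39, 1.91 and 1.5 CPM in KO and 1.72, 1.14, 1.04, 0.911 and 1.31 CPM in WT mice. Only WT replicate 1 reached the KO range, and the edgeR log2 ratio of 0.39 ± 0.20 SE (adjusted p 0.345) did not pass. Ccr7, their shared receptor on naive T cells and migrating dendritic cells, varied more within the KO group than between the groups, from 12.2 to 22.8 CPM in KO and from 14.99 to 21.7 CPM in WT mice (edgeR log2 ratio -0.06 ± 0.13 SE, adjusted p 0.858).

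Cxcl12 and Cxcr4 retain leukocytes and progenitors in tissue. Cxcl12 measured 220, 219, 226, 255 and 220 CPM in KO and 202, 164, 210, 266 and 229 CPM in WT mice (edgeR log2 ratio 0.05 ± 0.09 SE, adjusted p 0.803). Cxcr4 (ENSMUSG00000045382, GRCm38 chromosome 1, 128588199 to 128592293, minus strand) measured 50.6, 66.1, 63.6, 63.1 and 65.3 CPM in KO and 55.3, 55.8, 54.5, 57.1 and 49.2 CPM in WT mice. The 4 KO females lay above all WT mice, and the KO male, replicate 1, lay among them. The fit by edgeR gave a log2 ratio of 0.16 ± 0.07 SE (p 0.0411, adjusted p 0.275), and it was 0.26 without KO replicate 1 (edgeR p 0.0010, adjusted p 0.191) and 0.09 without WT replicate 5 (edgeR p 0.178). The unadjusted threshold was also lost without KO replicate 2, 3, 4 or 5 and without WT replicate 1 or 4.

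Cx3cl1 (ENSMUSG00000031778, GRCm38 chromosome 8, 94772009 to 94782427, plus strand), a membrane-bound chemokine of endothelium and epithelium that is shed by ADAM proteases, was the member whose genotype ranges did not overlap. It measured 59.0, 59.0, 67.0, 59.1 and 59.2 CPM in KO and 55.9, 54.4, 58.5, 58.1 and 50.0 CPM in WT mice. The gap between the groups was small: the lowest KO value was 59.0 and the highest WT value 58.5 CPM. By edgeR the log2 ratio was 0.13 ± 0.06 SE (p 0.0424, adjusted p 0.279), and it was 0.10 without KO replicate 3 (edgeR p 0.106) and 0.09 without WT replicate 5 (edgeR p 0.166). The unadjusted threshold was also lost without WT replicate 1 or 2 and with no filter on low counts. Cx3cr1, its receptor on patrolling monocytes and macrophages, held 17.9 ± 2.90 CPM in KO mice and 17.3 ± 1.84 CPM in their WT controls (SD, n = 5 per genotype, edgeR log2 ratio -0.02 ± 0.08 SE, adjusted p 0.918).

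Cxcr6 (ENSMUSG00000048521, GRCm38 chromosome 9, 123806475 to 123811760, plus strand), which retains resident T cells and NK T cells in the lung, was the member lower in KO at the unadjusted threshold. It measured 3.81, 5.28, 3.85, 4.64 and 5.76 CPM in KO and 5.58, 7.04, 5.58, 5.16 and 5.55 CPM in WT mice. KO replicates 1, 3 and 4 lay under every WT mouse, and KO replicates 2 and 5 did not. The edgeR log2 ratio was -0.30 ± 0.14 SE (p 0.0493, adjusted p 0.293), and -0.15 without KO replicate 1 (edgeR p 0.324). The unadjusted threshold was also lost without KO replicate 3 or 4 and without WT replicate 1, 2, 3 or 5. DESeq2 size factors, a minimum mean of 1 CPM, the DESeq2 Wald test, no robust dispersion and females alone each lost it too. T cell markers summed to 48.7 to 77.5 CPM in KO and 56.1 to 75.1 CPM in WT mice. The whole span of Cxcr6 lies within Fyco1 on the opposite strand, which averaged 102 CPM. Cxcl16, the transmembrane ligand of CXCR6, held 57.1 ± 3.08 CPM in KO mice and 55.0 ± 3.37 CPM in their WT controls (SD, n = 5 per genotype).

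Of the remaining ligands, Cxcl14 stood at 158 ± 25.3 CPM in KO mice and 162 ± 27.3 CPM in their WT controls (SD, n = 5 per genotype, edgeR log2 ratio -0.08 ± 0.10 SE, adjusted p 0.744), and Cxcl17 held 25.9 ± 2.42 and 24.9 ± 1.91 CPM. The mucosal and skin ligands Ccl25, Ccl27a and Ccl28 were all 3 fitted lower in KO, with a median of -0.11, and none passed the unadjusted threshold. The 3 tested atypical receptors did not pass it either. Ackr2 held 42.2 ± 2.95 CPM in KO mice and 45.0 ± 5.84 CPM in their WT controls (SD, n = 5 per genotype, edgeR log2 ratio -0.08 ± 0.08 SE, adjusted p 0.669). Ackr3, which scavenges CXCL12, held 37.1 ± 4.51 and 34.3 ± 3.56 CPM, and Ackr4, which scavenges the CCR7 ligands, held 11.4 ± 0.818 and 12.9 ± 1.54 CPM.

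Sex is the other label that differs between the mice. By the sex term of the same edgeR fit 0 of 50 members passed an adjusted p under 0.05, where 0.583% of all tested genes passed. The DESeq2 Wald test called 1 member (2%), Cx3cr1, where it called 2.42% of all tested genes, and limma-voom called 0, where it called 0.516%. At an unadjusted p under 0.05, 5 members (10%) were higher in males, where 7.34% of all tested genes were. These were the monocyte-attracting ligands Ccl8 and Ccl12, the mucosal ligand Cxcl17 and the receptors Ccr1 and Cxcr2. In the other direction 9 members (18%) were lower in males, where 7.79% of all tested genes were. They were the receptors Cx3cr1, Ccr3, Ccr4, Ccr6, Ccr7, Ccr9 and Cxcr5 and the ligands Ccl9 and Cxcl14. Receptors are 20 of the 50 tested members, and their share among these 9 was not tested. The ranges of the sexes were separate for 3 members (6%), Cx3cr1, Ccr3 and Ccr9, against 4.81% of all tested genes. Without KO replicate 5, Ccl20 also passed the filter, through its KO values alone. In that set 51 members were tested and 0 were called by edgeR (0.514% of all genes). At the unadjusted threshold 3 of them (5.88%, against 7.13% of all genes) were then higher in males, Ccl8, Ccr1 and Cxcr2. Those lower numbered 8 (15.7%, against 7.39%), with Ccr4 no longer among them, and 4 members had separate ranges (7.84%, against 5.78%), Cxcl14 being the one added. Because 3 males were compared with 7 mice labelled female, 1 mouse weighs heavily here. Without KO replicate 1, the one KO male, 0 of all tested genes were called for sex.

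Cx3cr1 (ENSMUSG00000052336, GRCm38 chromosome 9, 119901616 to 120069879, minus strand) had the smallest p for sex. It measured 13.9, 14.8 and 15.8 CPM in the males, against 16.2 to 20.99 CPM in the females (median 18.7). All males lay under all females, with an edgeR log2 ratio of -0.34 ± 0.09 SE (adjusted p 0.0928, DESeq2 Wald adjusted p 0.0353). Without KO replicate 5 it was again -0.34 (edgeR adjusted p 0.124), and without KO replicate 1 it was -0.27 (edgeR adjusted p 0.402). The span of Cx3cr1 overlaps other expressed genes on both strands, and their part in its counts was not tested. Ccr1, a receptor of neutrophils, monocytes and macrophages, stood at 8.30, 7.24 and 7.99 CPM in the males, against 5.17 to 7.45 CPM in the females (median 5.85). Among the females, WT replicate 5 alone reached the male range. The fit by edgeR gave a log2 ratio of 0.38 ± 0.12 SE (adjusted p 0.146), and 0.36 without KO replicate 5. Ccl9, a myeloid ligand of CCR1, was 11.4 ± 1.18 CPM in males (SD, n = 3) and 13.7 ± 1.29 CPM in females (SD, n = 7), with an edgeR log2 ratio of -0.27 ± 0.10 SE (adjusted p 0.225). It was -0.26 without KO replicate 5.

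Of the 9 tested CC receptors, 5 were lower in males and 1 higher at the unadjusted threshold, and of the 6 CXC receptors 1 was lower and 1 higher. Over all tested genes, 7.79% were lower in males and 7.34% higher. Whether either receptor class departs from these shares was not tested. Receptors that lymphocytes carry did not all do the same: Cxcr3 (log2 ratio 0.09), Cxcr6 (0.00) and Ccr10 (-0.09) did not pass it. Ccr7 measured 12.2, 14.99 and 18.3 CPM in the males, against 15.6 to 22.8 CPM in the females (median 19.2), an edgeR log2 ratio of -0.37 ± 0.15 SE (adjusted p 0.275). The male values spread widely, and the change was -0.17 without KO replicate 1 and -0.35 without KO replicate 5. Ccr9, a homing receptor of the gut and thymus, measured 1.69, 1.81 and 1.85 CPM in the males, against 2.00 to 2.95 CPM in the females (median 2.42), with no overlap (edgeR log2 ratio -0.42 ± 0.16 SE, adjusted p 0.241). Without KO replicate 5 this was again -0.42. The span of Ccr9 also overlaps other expressed genes on both strands, and their part in its counts was not tested. Cxcr5 stood at 10.6 ± 1.73 CPM in males (SD, n = 3) and 13.5 ± 1.83 CPM in females (SD, n = 7). Ccr4, a receptor of type 2 and regulatory T cells, stood at 0.503 ± 0.0416 and 0.850 ± 0.243 CPM, and Ccr6 at 1.28 ± 0.538 and 1.87 ± 0.332 CPM. Without KO replicate 5 the edgeR log2 ratios of Cxcr5, Ccr4 and Ccr6 were -0.31, -0.66 and -0.56. T cell markers had sums of 48.7 to 56.5 CPM among males against 55.3 to 77.5 CPM among females (exact permutation p 0.025, adjusted p 0.183 over 22 lists, all 8 markers expressed), and the exact permutation p was 0.0357 without KO replicate 5 (adjusted p 0.262). B cell markers summed to 176.5 to 204.5 and 144 to 303 CPM (exact permutation p 0.35, and 0.429 without KO replicate 5). The part of T and B cell markers in the receptor values was not tested. Lower T cell markers were not the only such difference. Alveolar type 1, platelet and club cell markers were higher in males (exact permutation p 0.00833, 0.0167 and 0.0333, each with adjusted p 0.183). Ccr3 measured 1.73, 1.14 and 1.73 CPM in the males, against 1.83 to 4.21 CPM in the females (median 2.37), without overlap, an edgeR log2 ratio of -0.64 ± 0.24 SE (adjusted p 0.241), and -0.67 without KO replicate 5.

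Cxcr2 was high in part of the males. It measured 9.83, 3.81 and 8.87 CPM in the males, against 3.63 to 6.07 CPM in the females (median 4.83). KO replicate 1 and WT replicate 3 stood above every female, while the third male, WT replicate 2, lay near the lowest female. By edgeR the log2 ratio was 0.61 ± 0.25 SE (adjusted p 0.282). It passed without WT replicate 2 (0.92, edgeR adjusted p 0.0251) and was 0.20 without KO replicate 1 (edgeR adjusted p 0.870), and it was 0.55 without KO replicate 5. Neutrophil markers were highest in the same mice, with 115.7 and 116 CPM in KO replicate 1 and WT replicate 3, and 78.2 CPM in WT replicate 2, the lowest. Over the sexes the neutrophil markers did not differ beyond their spread (exact permutation p 0.6, and 0.536 without KO replicate 5). The 4 monocyte-attracting ligands were all fitted higher in males, 2 of them past the unadjusted threshold, where 7.34% of all tested genes were higher. The group as a whole was not tested. Ccl8 stood at 2.37 ± 0.441 CPM in males (SD, n = 3) and 1.45 ± 0.494 CPM in females (SD, n = 7), and Ccl12 at 1.099 ± 0.321 and 0.679 ± 0.219 CPM. Their edgeR log2 ratios without KO replicate 5 were 0.65 (p 0.0449) and 0.64 (p 0.0632).

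**Figure D4:**
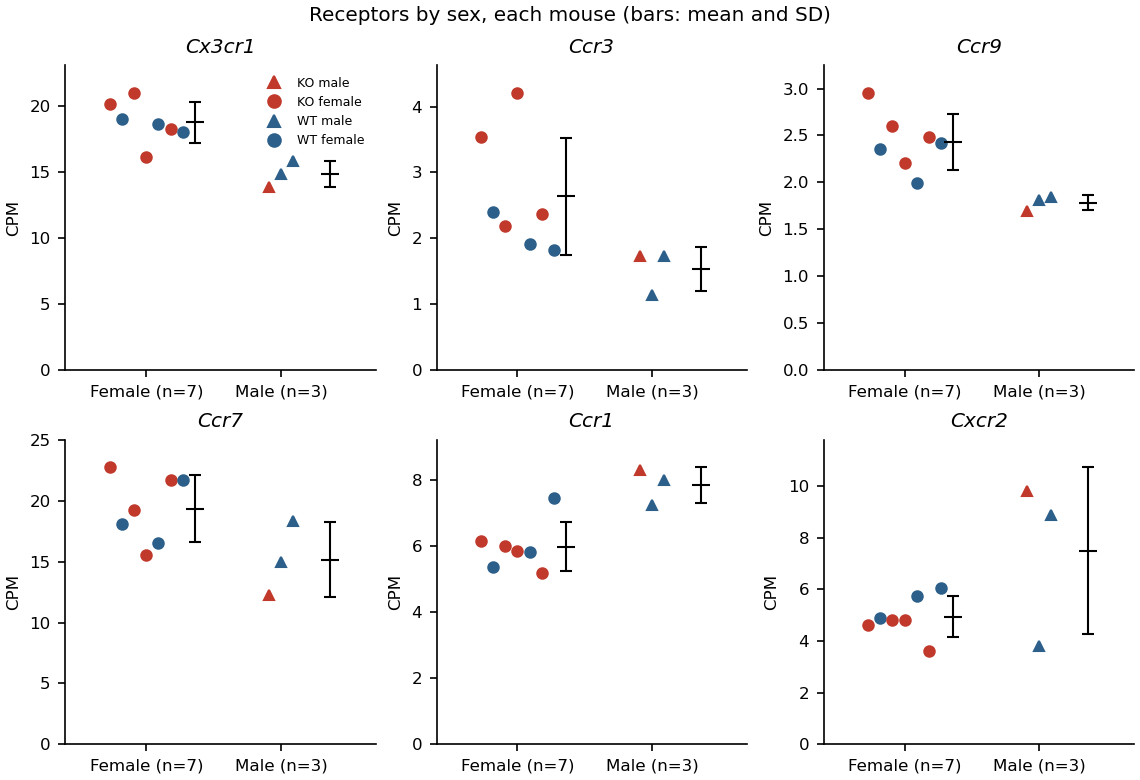
CPM of 6 receptors in each mouse by labelled sex (7 females, 3 males), KO in red and WT in blue, with mean and SD bars, every axis from 0. Cx3cr1, Ccr3 and Ccr9 do not overlap between the sexes, and the male values of Cxcr2 are split between 2 high mice and 1 low mouse.

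Whether members follow the cells that carry them, or their partners, was asked across the 10 mice for 22 relations on the log2 CPM scale, with permutation p-values from 100000 resamples adjusted over the 22. A pair of relations passed by Pearson's r. Ccr7 rose with the T cell markers (r 0.933, permutation p 6.0e-05, adjusted 0.00132; Spearman's coefficient 0.891, permutation p 0.0012, adjusted 0.0217), and r was 0.875 without the 2 mice farthest from the median of Ccr7 (permutation p 0.0056, adjusted 0.0617, no longer past the threshold). Ccl5 rose with the NK cell markers (r 0.93, permutation p 1.4e-04, adjusted 0.00154; Spearman's coefficient 0.867, permutation p 0.00197, adjusted 0.0217), and r was 0.905 without the 2 farthest mice (permutation p 0.00221, adjusted 0.0486). Both held within groups, with r of 0.891 and 0.957 on the residuals after genotype and sex. The low NK cell marker sum of WT replicate 4, 33.7 CPM, came with the lowest Ccl5, 12.3 CPM.

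For Cx3cr1, Cxcr5 and Cxcr2 the relation passed by rank or on residuals and not by r. Cx3cr1 followed monocyte and interstitial macrophage markers (r 0.740, permutation p 0.0140, adjusted 0.102; Spearman's coefficient 0.830, permutation p 0.00495, adjusted 0.0272), with an r of 0.743 without the 2 farthest mice and 0.578 on the residuals. Cxcr5 followed B cell markers (r 0.721, permutation p 0.0191, adjusted 0.105; Spearman's coefficient 0.830, permutation p 0.00455, adjusted 0.0272), with an r of 0.769 without the 2 farthest mice and 0.771 on the residuals (permutation p 0.00804, adjusted 0.0442). Cxcr2 against neutrophil markers gave an r of 0.642 (permutation p 0.0485, adjusted 0.178; Spearman's coefficient 0.709, permutation p 0.0272, adjusted 0.0997), 0.728 without the 2 farthest mice and 0.905 on the residuals (permutation p 8.5e-04, adjusted 0.00638). No relation passed for Ccl21a against lymphatic endothelial markers (r -0.139, Spearman's coefficient 0.018, permutation adjusted p 0.780 and 0.974), or for Xcr1 against conventional dendritic cell markers (r 0.139, Spearman's coefficient 0.236, permutation adjusted p 0.780 and 0.666). Nor did Cxcr3 pass against T cell markers (r -0.075, Spearman's coefficient 0.018), or Ccr6 against B cell markers (r 0.533, Spearman's coefficient 0.527). Cxcl15 with alveolar type 2 markers (r 0.420), Cxcl17 with club cell markers (r 0.532) and Ccl6 with alveolar macrophage markers (r 0.508) did not pass either.

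Pairs of a ligand and its own receptor made up 10 of the 22 relations. None of these 10 pairs computed passed by Pearson's r, and Cxcl13 with Cxcr5 (r -0.379, Spearman's coefficient -0.370), Ccl19 with Ccr7 (r -0.118, Spearman's coefficient -0.127) and Cxcl12 with Cxcr4 (r 0.184, Spearman's coefficient 0.127) had permutation p-values of 0.28 to 0.75. The one pair past the threshold by rank was inverse. Cxcr3 was lower in mice with more Cxcl9 (r -0.676, permutation p 0.0381, adjusted 0.168; Spearman's coefficient -0.794, permutation p 0.00897, adjusted 0.0395). Its r was -0.839 without the 2 mice farthest from the median of Cxcl9 and -0.547 on the residuals after genotype and sex (permutation p 0.105).

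**Figure D5:**
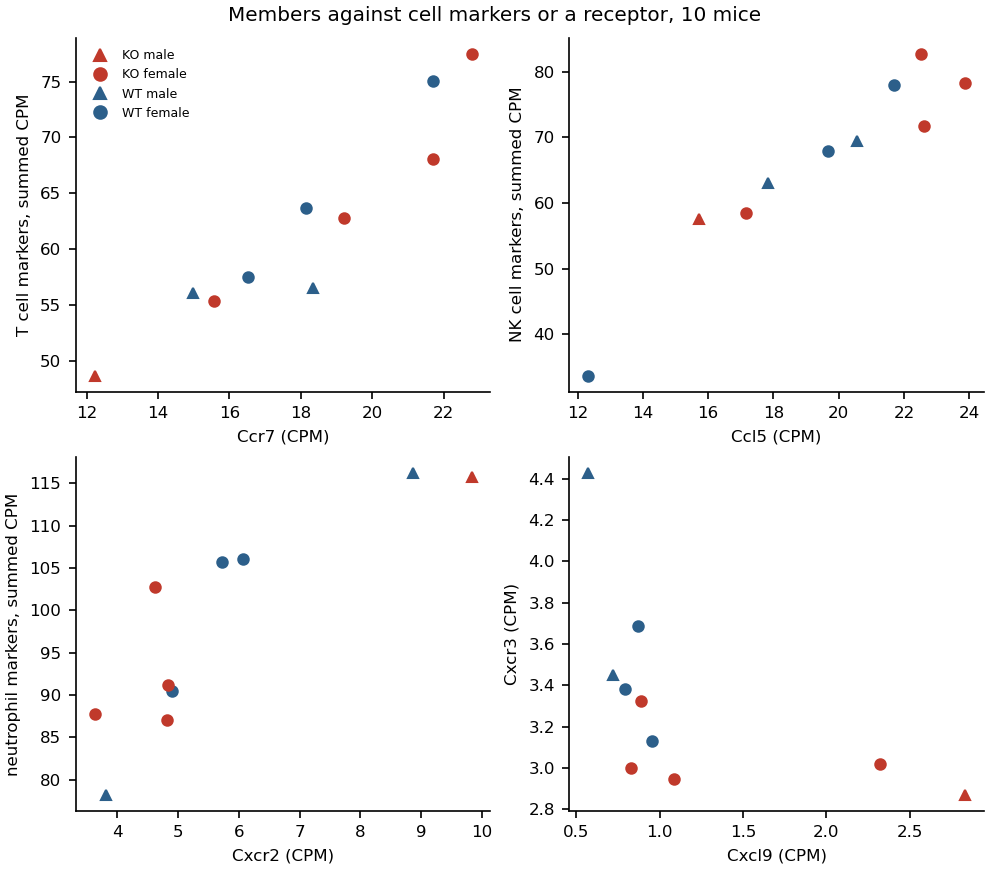
Relations across the 10 mice in CPM, KO in red, WT in blue, triangles for males and circles for females. Ccr7 and Ccl5 rise with T cell and NK cell markers in both genotypes, Cxcr2 rises with neutrophil markers, and the mice with the 2 highest Cxcl9 values are KO mice with Cxcr3 near the low end.

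The wider pathway was examined through lists of genes outside the members. Of 44 tested genes of chemokine signalling (G protein subunits, arrestins, receptor kinases, the phosphoinositide 3-kinase gamma unit, small GTP-binding proteins and regulators of G protein signalling), 0 were called between the genotypes, 2 were higher in KO and 3 lower at an unadjusted p under 0.05, and the median log2 fold change was 0.00. These counts, and those of the lists that follow, lie beside shares of 8.92% higher and 8.04% lower over all tested genes. Rgs1, which damps chemokine receptor signalling in lymphocytes, stood at 2.25 ± 0.392 CPM in KO mice and 1.54 ± 0.331 CPM in their WT controls (SD, n = 5 per genotype, edgeR adjusted p 0.210). Rgs2 stood at 72.9 ± 5.87 and 85.8 ± 16.0 CPM (edgeR adjusted p 0.210), and Gnb2, a G protein beta subunit, at 391.5 ± 26.7 and 429.8 ± 23.2 CPM (edgeR adjusted p 0.227). Of 19 tested genes that are related to chemokines but carry other names, such as Pf4, Ppbp, Ccrl2 and Cmklr1, 0 were called, 0 were higher and 2 lower. Those with the smallest p were Nup85 at 33.3 ± 2.24 and 37.3 ± 1.91 CPM (edgeR adjusted p 0.181), Ltb4r1, a leukotriene B4 receptor, at 3.69 ± 0.473 and 4.50 ± 0.662 CPM (edgeR adjusted p 0.224), and Adam17, a protease that sheds CX3CL1, at 65.5 ± 4.86 and 61.4 ± 4.81 CPM (edgeR adjusted p 0.304).

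The inducers of chemokine genes gave 17 tested genes of 22 listed, of which 0 were called, 2 were higher in KO and 0 lower at the unadjusted threshold, with a median of 0.02. The fitted values were higher in KO for 9 of the 17 and lower for 8. Il1b, the cytokine interleukin-1 beta, stood at 8.18 ± 0.923 CPM in KO mice and 6.37 ± 1.13 CPM in their WT controls (SD, n = 5 per genotype, log2 fold change 0.37, edgeR adjusted p 0.193). Tnfaip3, an NF-kappa B target that restrains the pathway, stood at 30.1 ± 3.64 and 25.3 ± 2.37 CPM (log2 fold change 0.24, edgeR adjusted p 0.235). Nfkb2, an NF-kappa B subunit, stood at 55.0 ± 2.26 and 52.1 ± 3.86 CPM (log2 fold change 0.11, edgeR adjusted p 0.296). Other listed cytokines stood lower in KO without passing the unadjusted threshold, with Tnf at 0.614 ± 0.365 and 1.06 ± 0.431 CPM (log2 fold change -0.86, edgeR adjusted p 0.429) and Csf2 at 1.52 ± 0.338 and 2.02 ± 0.376 CPM (log2 fold change -0.40, edgeR adjusted p 0.320). The cytokines Il6, Il13, Il17a, Ifng and Csf3 fell under the filter on low counts.

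Many members sit side by side in the genome: 40 of the 60 lie in 10 groups whose neighbours are within 1000000 bases (GENCODE M21, GRCm38). Ccr3 and Cxcr6, both on chromosome 9 and both at an unadjusted p under 0.05 for genotype, had log2 ratios of opposite sign. The group of Ccl2, Ccl7, Ccl11, Ccl12, Ccl8 and Ccl1 on chromosome 11 (82035571 to 82305690) had a median KO against WT log2 fold change of -0.02. The neighbouring Ccl5 to Ccl4 group (83525778 to 83664683) also had a median of -0.02. The Cxcl9 and Cxcl10 pair on chromosome 5 (92321347 to 92348889) had the highest median, 0.71, with 2 genes.

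The genes outside the members whose log2 CPM ran most like 3 lymphoid or epithelial ligands across the 10 mice, of 17974 genes compared, are given as a description. For Cxcl13 they were Laptm5 (r 0.953), Egfl8 (r 0.920) and Zfp87 (r 0.907). For Ccl21a they were Junb (r 0.893), Zfp523 (r 0.865) and Unc5a (r 0.852). For Cxcl15 they were Timm21 (r 0.941), Gm29538 (r 0.908) and Elmo3 (r 0.903). All 10 points of each r share their libraries and scaling.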

How the data were processed

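RNA of the right middle lung lobe was sequenced from 10 mice as single 50-base reads of mRNA libraries from a strand-keeping KAPA kit, per the labels' protocols. The authors deposited 1 table of estimated counts per Ensembl gene, not scaled between mice. STAR 2.6.0, Salmon 0.9.1, FastQC and MultiQC and the build GRCm38 (mm10) are named per the submitters' processing notes, and the annotation release is not given in the sources used here. GENCODE M21 gave symbols, positions and exon lengths by identifier (47281 of 47333 matched, and the 52 others held 0.0067% of counts). Symbol matches of other gene types (3 genes, Cxcl11 among them as a polymorphic pseudogene) were left out by the rule.

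Counts were rounded. Genes were kept by filterByExpr (minimum count 10, minimum total 15), scaled by TMM and tested with edgeR's quasi-likelihood test (robust, sex and genotype as terms, edgeR 4.0.16, R 4.3.3) over 18024 genes, with Benjamini-Hochberg adjustment over all of them, two-sided. Standard errors are the absolute log2 fold change over the square root of F. Marker lists were compared by exact permutation tests of the mean log2 CPM (prior count 2, markers with a mean of at least 1 CPM). The smallest p is 0.007937 by genotype and 0.008333 by sex. The tests of marker lists by sex and the results by sex without KO replicate 5 were added after seeing the data. Alternatives used DESeq2 1.42.0, limma 3.58.1, other filters and covariates, females alone, and each mouse left out. The scripts were tested on simulated data. The values of 1 member are not reported here, and it is not drawn, although it is counted among the members and in the counts over them.

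The members, gene lists and tests were chosen with earlier results of these data known. Named members were those at an unadjusted p under 0.05 or with separate ranges by genotype, the 3 smallest p for sex, the highest levels per kilobase, and a fixed set of ligand and receptor pairs. Most other members are given by level only. Ccl20 and the members added for sex were singled out after their values were seen. Those added for sex were Ccr3, Ccr4, Ccr6, Ccr7, Ccr9, Cxcr2, Cxcr5, Ccl8 and Ccl12, with Cxcr3, Cxcr6 and Ccr10 as receptors that did not pass. Replicate numbers are accession order only and so do not pair the mice.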

Additional observations from a re-analysis of the deposited data

Results flagged for a closer look

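Of 62 sets of 5 mice that were examined (the named members and 6 marker lists in each genotype), 8 held 1 mouse set apart from the rest by more than Dixon's 95% criterion allows, where chance flags about 1 in 20 sets, or 3.1. Cx3cl1 in KO replicate 3 was 66.96 CPM, with the other KO mice between 58.99 and 59.19. Cxcl10 in WT replicate 5 was 1.518 CPM, with the other WT mice between 0.9522 and 1.047. Cxcl12 in KO replicate 4 was 255.3 CPM, against 218.6 to 225.7 in the other KO mice. KO replicate 1 stood apart for 2 receptors, with Cxcr2 high at 9.832 CPM (others 3.631 to 4.829) and Cxcr4 low at 50.62 CPM (others 63.13 to 66.08), and it is the one KO male. Cxcr6 in WT replicate 2 was 7.045 CPM, against 5.164 to 5.578 in the other WT mice. The B cell markers of WT replicate 5 summed to 264.9 CPM (others 184.5 to 204.5), and the club cell markers of KO replicate 4 to 33670 CPM (others 29880 to 30640).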

How the results depend on the processing

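Between the genotypes, 4 genes were called over all genes tested, 50 with no filter on low counts, 346 by the DESeq2 Wald test, 2 by limma-voom, and 2 to 18 when 1 mouse was left out. Members called numbered 0, and 1 with no filter (Ccl20), a setting for which the share of all genes called was not computed. Members at an unadjusted p under 0.05 numbered 5 of 50, beside 8.92% of all tested genes higher in KO and 8.04% lower. They numbered 8 with no filter, and 3 to 6 with 1 mouse left out (3 without KO replicate 2, KO replicate 3 or WT replicate 5). The counts without KO replicate 5 or any 1 WT mouse include Ccl20. It passed the filter in those sets only through the KO mice, where it was high, so its entry there is no separate support. For sex, 105 genes were called, 197 with no filter, 436 by DESeq2, 41 without the genotype term, and 0 to 195 with 1 mouse left out (0 without KO replicate 1). Members at an unadjusted p under 0.05 for sex numbered 14 of 50, beside 7.34% of all tested genes higher in males and 7.79% lower. They numbered 11 to 15 by other settings, and 6 to 12 with 1 mouse left out (6 without WT replicate 2, 9 without KO replicate 1 or WT replicate 3). The genes tested differ between settings. Shares of all genes at the unadjusted threshold were not computed for each setting, so these counts cannot be compared across settings. Members called for sex numbered 0, 1 by DESeq2 (Cx3cr1), and 0 to 1 with 1 mouse left out (Cxcr2 without WT replicate 2). Relations passing numbered 2, 4 on residuals after genotype and sex, 1 without the 2 farthest mice, and 2 to 4 with 1 mouse left out. Marker lists stayed at 0 by genotype in each alternative run.

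Of 30 single-member results, 20 kept their direction in each alternative. Log2 fold changes that reversed were all near 0. With females alone Ccl21a was -0.0473, Cxcl12 -0.0170, Cxcl13 -0.0223, Ccr7 0.0751 and Cx3cr1 0.0238. Without the sex term Ccl9 was 0.0257, Ccr7 0.0265 and Cx3cr1 0.0477. With no filter Ccl21a was -0.0040, and by limma-voom Cxcr2 was 0.0224. With 1 mouse left out the ranges were -0.1224 to 0.0354 for Ackr2, -0.0481 to 0.6694 for Ccl2, -0.0469 to 0.0594 for Ccl21a, -0.1048 to 0.0427 for Ccl9, -0.1064 to 0.0783 for Ccr1, -0.1456 to 0.0755 for Ccr7, -0.0633 to 0.0242 for Cx3cr1, -0.0167 to 0.1396 for Cxcl12, -0.0408 to 0.3588 for Cxcl13 and -0.3212 to 0.0742 for Cxcr2. The cause was not tested. No paired analysis was possible because the labels give the mice no shared replicate numbers. Depth limits the inducible ligands, since Ccl20 and Cxcl2 had 1 to 29 and 2 to 17 counts per mouse.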
